A study of Saccharomyces cerevisiae with 18 samples.

Results

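The comparison described here sets the budding yeast mutant swi3 against its wild type in cultures that received no Congo Red. It takes 6 of the 18 arrays of the series: the 3 arrays of swi3 and the 3 of the wild type, chosen by genotype and treatment from the sample labels. The series as a whole measured wild type, rlm1 and swi3 with and without 30 µg/ml of Congo Red, a dye that binds cell wall polymers, in 6 groups of 3 biological samples. Both groups compared here are in strain BY4741, a haploid laboratory strain of mating type a from which HIS3, LEU2, MET17 and URA3 were removed, wholly or in part, so both groups share these lesions. Cells were taken 4 hours after the cultures had reached a set density, and the RNA was described as coming from exponentially growing cells. The labels give swi3 only as a mutant, without the lesion or the number of clones. The mutant and the wild type with Congo Red, 3 arrays each, were set beside this comparison as separate measurements.

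Swi3 is a core scaffold subunit of SWI/SNF, the complex that uses ATP to slide and evict nucleosomes at promoters. SWI/SNF was found through yeast mutants that could not switch mating type, because HO stayed silent, or could not use sucrose, because SUC2 stayed silent. It is recruited by activators to strongly regulated genes, among them the phosphatase gene PHO5, and it also takes part in the repression of some genes.

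Levels are log2 probe set values after quantile normalization of the 6 arrays, and a difference is swi3 minus wild type on that scale, so that 1 is a doubling. The deposited medians were 9.58, 9.67 and 9.69 on the swi3 arrays, against 10.01, 10.03 and 10 on the wild-type arrays. Without further normalization the median difference of all features was -0.41, and after quantile normalization it was -0.05. A call needed an adjusted p under 0.05 (limma, Benjamini-Hochberg over 5645 features). Of 47 reporter probe sets, 37 stayed under 7 on each of the 6 arrays, so a level under 7 is near the bottom of the scale and a difference from or to it may be understated. The deposited reporter medians were 4.46, 4.29 and 4.32 on the swi3 arrays, against 5, 5.11 and 5.09 on the wild-type arrays. The bottom of the deposited scale thus lay lower in swi3, and its effect on dim features was not tested. The gap between 3' and 5' control probe sets, a sign of RNA integrity, was 1.04, 0.83 and 1.26 on the swi3 arrays, against 0.76, 0.76 and 0.80 on the wild-type arrays. Its part in the results was not tested. The number 3 arrays of both strains departed together from their group means. Values without both are given for some counts only, and other counts changed too.

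Across all features, 1550 of 5645 were called (27.5%), 798 higher in swi3 (14.1%) and 752 lower (13.3%). By at least 2-fold, 238 were higher (4.22%) and 112 lower (1.98%). After centring each array on its median instead, 212 were higher (3.76%) and 235 lower (4.16%) by at least 2-fold, so that the share of higher calls among them was 47.4% in place of 68%. That setting called 36.3% of features in all, 18.3% higher and 18.1% lower. The median wild-type level was 8.25 among features higher by at least 2-fold and 10.86 among those lower by at least 2-fold, against 9.85 over all features. The median swi3 levels of the same sets were 10.01, 8.62 and 9.83. Picking features by their difference in part fixes these levels. Of the 238 higher ones, 72 had a wild-type mean under 7, and of the 112 lower ones, 29 had a swi3 mean under 7. With the replicate number as a block, 36.4% of features were called, 17.3% higher and 19.1% lower.

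**Figure D1:**
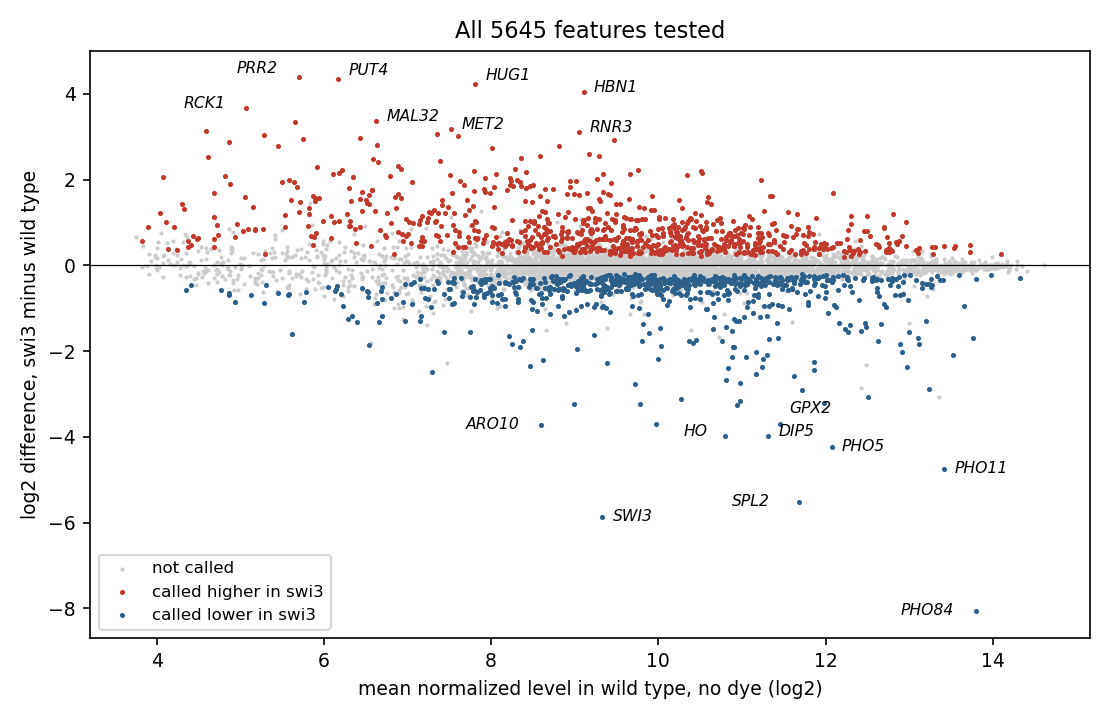
Each point is 1 of 5645 features, with its mean normalized level in the wild type without dye on the x axis (log2) and the difference of swi3 minus wild type on the y axis (log2). Red features were called higher in swi3, blue ones lower and grey ones were not called. PHO84 and SWI3 lie lowest, and PRR2 and PUT4 start under a wild-type level of 7, while HUG1 and HBN1 start above it. The order of these 4 genes differs after median-centring.

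SWI3 stood at a deposited level of 3.25, 3.16 and 3.38 on the swi3 arrays, against 9.55, 9.44 and 9.67 on the wild-type arrays. The fitted difference was -5.86 ± 0.11 (SE, n = 3 arrays per group, adjusted p = 4.36e-06). The targeted gene was thus low on every array labelled swi3. KRE9 and RPL17B, which lie beside SWI3, differed by 0.01 ± 0.06 and -0.07 ± 0.06, and neither was called.

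Of the 12 SWI/SNF subunit genes, 1 was called lower, SWI3 itself, and 0 higher by limma. At an unadjusted p under 0.05, 3 were lower and 2 higher. The catalytic subunit gene SNF2 had levels of 10.94, 10.88 and 10.95 in swi3, against 10.91, 11 and 10.93 in the wild type. The other subunit genes lay between -0.29 (SNF12) and 0.35 (SWI1). With the replicate number as a block, SWI1 and SNF6 were called higher and SNF12 lower. RSC is a related remodelling complex, and RSC8 encodes its counterpart of Swi3. RSC8 differed by -0.01 ± 0.18 and was not called. RSC6 was higher (0.64 ± 0.08), while the ATPase gene STH1 (-0.46 ± 0.11) and SFH1 (-0.38 ± 0.08) were lower. The STH1 call was lost without either of swi3 numbers 1 and 2 or without any wild-type array, and that of SFH1 without swi3 number 2, wild-type number 2 or 3, or both number 3 arrays.

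The phosphate regulon held the largest decreases. In yeast, phosphate shortage lets the inhibitor Pho81 silence the cyclin-kinase pair Pho80-Pho85, and the factors Pho4 and Pho2 then switch on transporters, secreted phosphatases and the enzymes that store polyphosphate. Of 27 measured genes of this list, 17 were lower, 11 of them by at least 2-fold, and 4 were higher, with a median of -0.77 against -0.05 over all features. The list counts were 17 lower and 2 higher without both number 3 arrays.

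PHO84, the high-affinity phosphate transporter, had levels of 5.21, 6.06 and 5.92 in swi3, against 13.85, 13.86 and 13.68 in the wild type. The groups lay far apart, with every swi3 array under 7. The difference was -8.07 ± 0.22 (SE, n = 3, adjusted p = 1.92e-05). The second high-affinity transporter gene, PHO89, stood at 8.73, 8.26 and 8.91 in swi3, against 11.87, 11.54 and 10.10 in the wild type. The groups did not overlap, and the difference was -2.54 ± 0.47 (adjusted p = 0.011). PHO86, whose product helps Pho84 leave the endoplasmic reticulum, was lower by a small amount (-0.61 ± 0.07).

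The low-affinity transporter genes went the other way. PHO87 was at 11.41, 11.19 and 11.10 in swi3, against 9.77, 9.80 and 10.27 in the wild type, a difference of 1.28 ± 0.16 (adjusted p = 0.0026). PHO90 differed by 0.31 ± 0.07, a call that was lost without swi3 number 3, without any of the wild-type arrays and without both number 3 arrays. SPL2, which encodes a small protein that restrains low-affinity phosphate uptake, had 6.68, 5.8 and 6.0 in swi3, against 11.97, 11.75 and 11.32 in the wild type. Its difference was -5.52 ± 0.27 (adjusted p = 9.56e-05), the largest after PHO84 and SWI3.

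The secreted acid phosphatase genes fell strongly. PHO5, the classic chromatin model promoter, was at 7.81, 7.76 and 7.96 in swi3, against 12.57, 12.39 and 11.27 in the wild type. The swi3 levels were nearly level while the wild-type levels spread, and the difference was -4.23 ± 0.34 (adjusted p = 0.000466). PHO11 was at 8.69, 8.62 and 8.70 in swi3, against 13.57, 13.55 and 13.13 in the wild type, a difference of -4.75 ± 0.13 (adjusted p = 1.92e-05). PHO11 has a near-identical copy, PHO12, with no probe set under its own name here, so the PHO11 value may hold both. PHO3, an acid phosphatase gene governed by thiamine, was lower by a smaller amount (-1.70 ± 0.29, adjusted p = 0.00865). The vacuolar alkaline phosphatase gene PHO8 differed by -1.11 ± 0.20 (adjusted p = 0.0107).

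The genes of the vacuolar polyphosphate polymerase were all lower. VTC3 was at 10.71, 10.57 and 10.55 in swi3, against 13.09, 13 and 12.84 in the wild type (-2.37 ± 0.09, adjusted p = 5.8e-05). VTC4, the catalytic subunit gene, differed by -1.56 ± 0.16, VTC2 by -0.98 ± 0.08 and VTC1 by -0.95 ± 0.08. Among the regulators, PHO81 stood at 9.0, 9.02 and 8.98 in swi3, against 10.82, 10.80 and 10.68 in the wild type (-1.77 ± 0.07, adjusted p = 5.8e-05). PHO81 is itself a target of Pho4. PHO2 was lower by less (-0.55 ± 0.08), and PHO4 (-0.43 ± 0.22), PHO80 (-0.36 ± 0.14) and PHO85 (-0.16 ± 0.08) were not called, though PHO80 was called lower with the block. PHM7, which is listed with this regulon and with the general stress genes, was higher (2.09 ± 0.19, adjusted p = 0.000682).

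**Figure D2:**
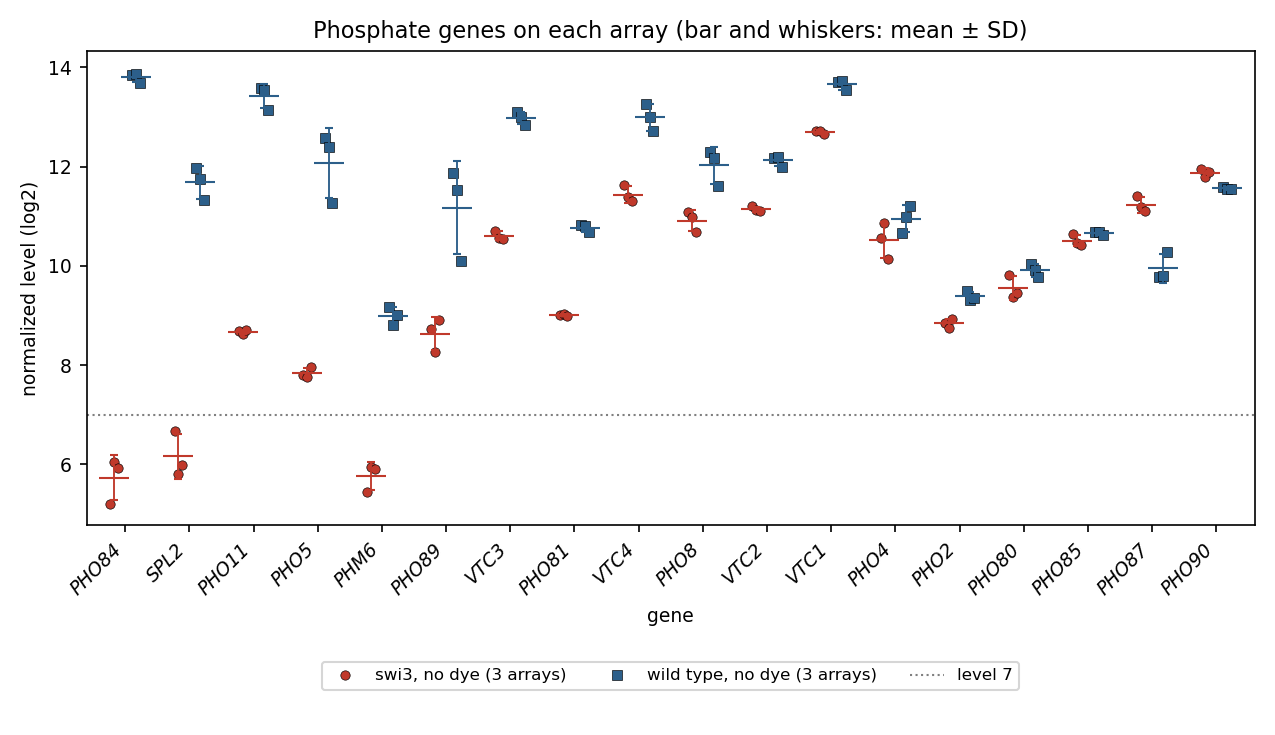
Normalized level (log2, y axis) of 18 phosphate genes on each array, with swi3 without dye (red circles, 3 arrays) to the left of the wild type without dye (blue squares, 3 arrays) and the mean ± SD of each group. PHO84, SPL2 and PHM6 lie under the dotted line at 7 on every swi3 array, the PHO4 groups overlap, and PHO87 and PHO90 lie above the wild type.

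HO and a part of the genes of cell separation were lower. HO, the endonuclease gene for mating type switching, which laboratory strains such as BY4741 carry in an inactive form, was at 7.29, 6.43 and 6.72 in swi3, against 10.64, 10.82 and 10.93 in the wild type. The groups lay far apart, and the difference was -3.98 ± 0.22 (adjusted p = 0.000144). ASH1, the daughter-cell repressor of HO, was lower too (-1.2 ± 0.11, adjusted p = 0.0007), while the HO activator genes SWI5 (-0.17 ± 0.14) and SWI4 (0.02 ± 0.20) were not called. Of 14 genes for the separation of daughter cells, 8 were lower and 0 higher by limma, with a median of -0.66, and at an unadjusted p under 0.05 the counts were 8 and 0.

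SCW11, a wall glucanase gene, had 9.78, 9.74 and 9.32 in swi3, against 11.14, 11.43 and 11.40 in the wild type (-1.71 ± 0.15, adjusted p = 0.00067). PRY3 (-1.54 ± 0.16), DSE1 (-1.37 ± 0.12), EGT2 (-1.35 ± 0.14) and DSE4, an endoglucanase gene (-1.2 ± 0.07), were lower as well. The chitinase gene CTS1, another gene of separation, differed by 0.04 ± 0.06 and was not called. In these bulk cultures, fewer cells of a type and less RNA per cell cannot be told apart. The count was also 8 lower and 0 higher without each array in turn, and 8 lower and 2 higher after median-centring.

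Other genes long tied to SWI/SNF moved both ways. Of 16 measured genes of this list, 5 were lower (HO, PHO5, PHO8, CHA1 and HTA1), 4 were higher (RNR3, SER3, SUC2 and ADH2, the last at 0.69) and 7 were not called. After median-centring 8 were lower and 3 higher. Over all features 13.3% were lower and 14.1% higher in the main fit, and 18.1% and 18.3% after median-centring. SUC2, the invertase gene, was at 10.94, 10.76 and 10.74 in swi3, against 10.24, 10.02 and 9.91 in the wild type. It was thus higher in swi3, by 0.76 ± 0.11 (adjusted p = 0.0043). SER3, a serine synthesis gene that an upstream noncoding transcript represses, stood at 11.97, 11.79 and 11.65 in swi3, against 9.91, 9.87 and 9.21 in the wild type (2.14 ± 0.20, adjusted p = 0.000893). The ADH2 call was lost after median-centring and without wild-type number 1 or 2. CHA1, the serine deaminase gene, was lower (-0.91 ± 0.08, adjusted p = 0.000579).

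INO1 (-0.04 ± 0.16), FLO11 (-0.06 ± 0.14), GAL1 (-0.15 ± 0.12) and GAL10 (0.20 ± 0.19) were not called. After median-centring the GAL10 difference had the opposite sign and was called lower. INO1, FLO11 and GAL1 were each called lower in 2 of 18 alternative settings. ARG1 stood at 9.03, 7.91 and 6.80 in swi3, against 10.09, 9.78 and 8.29 in the wild type, with overlap of the groups and no call (-1.47 ± 0.69, adjusted p = 0.165). It was called lower with the replicate number as a block. Among the histone genes, HTA1 was the only one called (-0.42 ± 0.10, adjusted p = 0.0244), and this call was lost after median-centring and without any 1 of 4 arrays (swi3 number 2 and wild-type numbers 1, 2 and 3). Its close copy HTA2 differed by 0.01 ± 0.10.

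Some genes of deoxynucleotide supply and the DNA damage response were higher, HUG1 and RNR3 by the most. Ribonucleotide reductase makes the DNA precursors, and its damage-inducible genes are held down by the repressor Rfx1 with Tup1 and Cyc8. Of 20 measured genes, 10 were higher and 2 lower, against 14.1% and 13.3% of all features, with a median of 0.25. HUG1, a small damage-induced inhibitor of the enzyme, was at 12.03, 12.01 and 12.07 in swi3, against 8.13, 7.70 and 7.61 in the wild type. The swi3 arrays agreed closely, and the difference was 4.23 ± 0.14 (adjusted p = 4.01e-05). RNR3, the inducible large subunit gene, was at 12.44, 12.37 and 11.71 in swi3, against 9.27, 9.10 and 8.8 in the wild type (3.11 ± 0.22, adjusted p = 0.000335).

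The other subunit genes moved less. RNR2 differed by 1.19 ± 0.10, RNR4 by 0.42 ± 0.12 and RNR1 by 0.27 ± 0.06, and the RNR4 call was lost without any single array. The RNR1 call was lost without swi3 number 3, any wild-type array or both number 3 arrays. RAD54, a recombination gene, was higher (0.78 ± 0.06), and so was RFX1 itself (0.64 ± 0.12), a call that was lost without wild-type number 2. The mitochondrial nuclease gene DIN7 was lower (-1.07 ± 0.18, adjusted p = 0.00766). Of the corepressor genes, TUP1 was higher (0.38 ± 0.07), a call that was lost without both number 3 arrays. CYC8 was lower (-0.31 ± 0.08), a call that was lost after median-centring, without swi3 number 1 or 2 and without any wild-type array. Leaving out both number 3 arrays left 7 higher and 1 lower in this list, and leaving out wild-type number 2 left 6 and 1.

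Many genes of sulphate assimilation and methionine synthesis were higher. Cells take up sulphate, activate and reduce it in several steps, and join the sulphide to a homoserine derivative, under the activator Met4 with Cbf1 and Met28. Of 33 measured genes, 16 were higher, 13 of them by at least 2-fold, and 2 were lower, with a median of 0.42. MET2, which makes O-acetylhomoserine, stood at 10.45, 10.93 and 10.72 in swi3, against 7.57, 7.43 and 7.57 in the wild type (3.18 ± 0.13, adjusted p = 6.01e-05). MET28, the coactivator gene, was at 9.26, 9.50 and 9.44 in swi3, against 6.63, 6.57 and 6.08 in the wild type (2.97 ± 0.16, adjusted p = 0.000133). The other regulator genes MET4 (0.26 ± 0.15) and MET32 (0.23 ± 0.20) were not called, and MET4 was called higher with the block.

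Along the pathway, the sulphate permease gene SUL2 was higher by 1.73 ± 0.17, while SUL1 (0.40 ± 0.14) was not called. The ATP sulphurylase gene MET3 had 11.99, 12.02 and 11.28 in swi3, against 9.34, 9.19 and 9.0 in the wild type (2.59 ± 0.22, adjusted p = 0.000566). MET14 (1.42 ± 0.18), MET16 (1.75 ± 0.16), MET5 (1.52 ± 0.29) and MET10 (1.83 ± 0.20), which act in the following reductions, were higher too. The methionine synthase gene MET6 differed by 1.68 ± 0.31 and the folate reductase gene MET13 by 1.69 ± 0.31. MET17, the sulphydrylase gene removed from BY4741, stayed under 5 on all 6 arrays. GSH1, the first enzyme gene of glutathione synthesis, was lower (-1.35 ± 0.11, adjusted p = 0.00048).

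**Figure D3:**
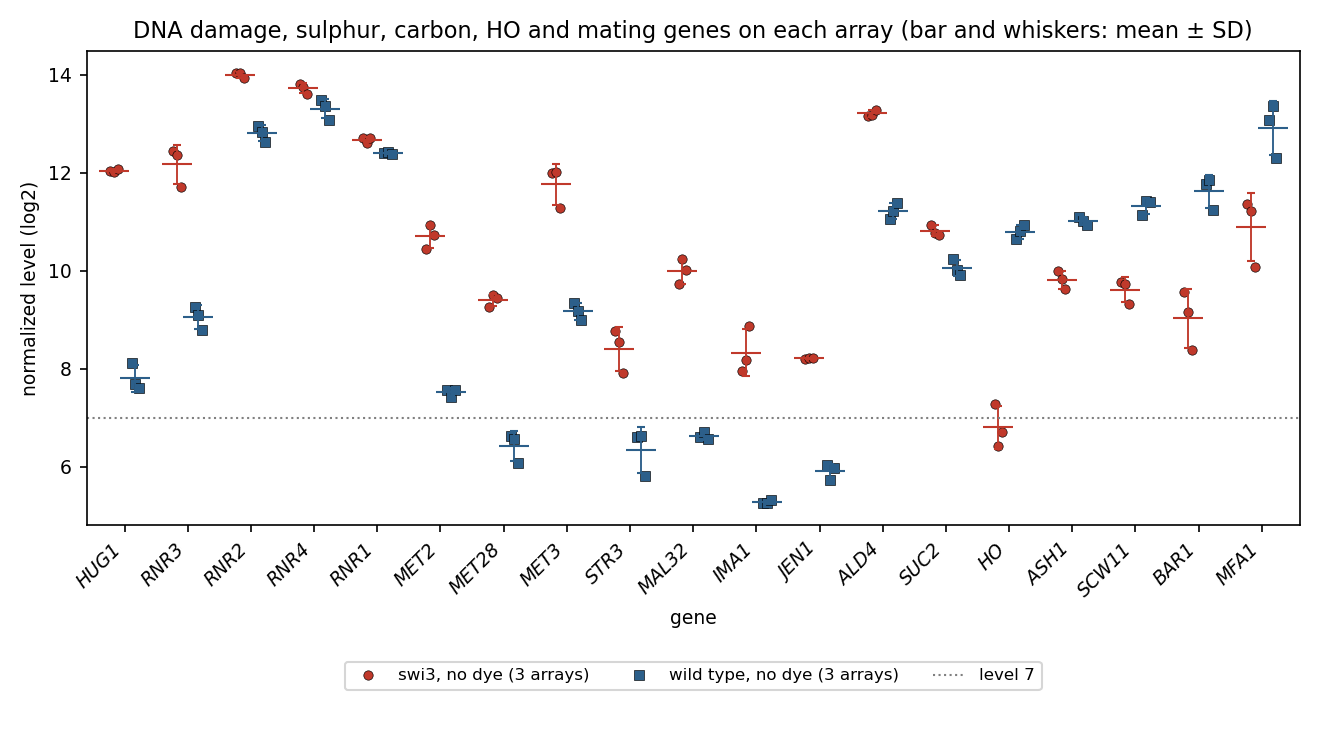
Normalized level (log2, y axis) of 19 genes on each array, from left to right genes of DNA damage and ribonucleotide reductase, sulphur, carbon sources, HO and cell separation, and mating. Red circles are swi3 without dye and blue squares, to their right, the wild type without dye, 3 arrays each with mean ± SD. HUG1, RNR3, MET2 and MAL32 lie higher in swi3 without overlap, and HO, BAR1 and MFA1 lie lower.

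Most measured genes for carbon sources other than glucose and for respiration were higher. Glucose represses these genes through repressors such as Mig1 and Nrg1. Activators including Adr1, Cat8 and Hap4 turn them on when glucose runs low. Of 33 measured genes for alternative carbon sources, 22 were higher, 11 of them by at least 2-fold, and 0 lower, with a median of 0.75. At an unadjusted p under 0.05, 24 were higher and 0 lower, and the block called 22 and 0. After median-centring 18 were higher and 6 lower.

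MAL32, a maltase gene, was at 9.72, 10.24 and 10.01 in swi3, against 6.60, 6.71 and 6.57 in the wild type (3.37 ± 0.14, adjusted p = 6.01e-05). MAL32 has a near-identical copy, MAL12, with no probe set under its own name here, so the value may hold both. The isomaltase gene IMA1 stood at 7.95, 8.18 and 8.87 in swi3, against 5.26, 5.27 and 5.33 in the wild type (3.05 ± 0.23, adjusted p = 0.00039). JEN1, the lactate and pyruvate transporter, was at 8.21, 8.22 and 8.23 in swi3, against 6.03, 5.74 and 5.98 in the wild type (2.30 ± 0.09, adjusted p = 6.01e-05). ALD4, the mitochondrial aldehyde dehydrogenase gene, differed by 1.99 ± 0.10, CYB2 (lactate dehydrogenase) by 1.98 ± 0.16 and PCK1 (gluconeogenesis) by 1.22 ± 0.09. The galactose genes GAL1, GAL7 and GAL10 were not called, though each was called lower in 2 of the alternative settings.

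Of 21 genes for hexose transport and sensing, 7 were higher and 0 lower by limma (9 and 0 at an unadjusted p under 0.05). Among all features 14.1% were higher and 13.3% lower. HXT4, a high-affinity transporter gene, was at 13.05, 13.06 and 12.76 in swi3, against 11.78, 11.55 and 10.66 in the wild type (1.62 ± 0.29, adjusted p = 0.00998). HXT2 was higher by 1.15 ± 0.10, MTH1, a glucose-sensing repressor gene, by 1.96 ± 0.21, and MIG1 by 1.13 ± 0.08. The low-affinity transporter genes HXT1 (-0.22 ± 0.21) and HXT3 (0.06 ± 0.06) were not called.

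Of 42 genes for subunits of oxidative phosphorylation, 34 were higher and 0 lower by limma, 3 by at least 2-fold, with a median of 0.65. At an unadjusted p under 0.05, 37 were higher and 1 lower, and with the block 39 and 1. INH1, an inhibitor of the ATP synthase, had 10.39, 10.38 and 10.80 in swi3, against 8.70, 8.23 and 7.92 in the wild type (2.24 ± 0.22, adjusted p = 0.00102). CYC7, the cytochrome c isoform of low oxygen, was at 9.36, 10.21 and 10.43 in swi3, against 7.68, 7.73 and 7.97 in the wild type (2.20 ± 0.28, adjusted p = 0.00266). COX7 (1.10 ± 0.19), QCR2 (0.99 ± 0.16), COX4 (0.80 ± 0.10) and ATP1 (0.36 ± 0.07) were higher too, and CYT1 was not called at -0.40 ± 0.12 but was the lower call with the block. All swi3 arrays lay above all wild-type arrays for 37 of the 42, against 20.3% of all features (25.6% of all features had all swi3 arrays below). Leaving out single arrays gave between 23 and 34 higher calls.

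Of 26 genes of glycolysis and fermentation 8 were higher, among them PDC6 (1.30 ± 0.13) and the glucokinase gene GLK1 (1.02 ± 0.07), and 1 was lower. After median-centring 19 were higher and 0 lower. The glycogen and trehalose list had 5 of 21 higher and 0 lower by limma (8 and 1 at an unadjusted p under 0.05). The largest were GAC1 (1.18 ± 0.12), GDB1 (1.08 ± 0.10) and TSL1 (0.93 ± 0.06), and the GAC1 call was lost after median-centring. Over all features 14.1% were higher and 13.3% lower, and after median-centring 18.3% and 18.1%.

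Few genes of the ribosome were called after quantile normalization. Of 127 measured genes of cytosolic ribosomal proteins, 1 was higher and 3 lower (median -0.04), and of 54 ribosome biogenesis genes 1 was higher and 3 lower (median -0.04). After median-centring 87 ribosomal protein genes were called higher and 1 lower, so no direction is given for this group. RPS14B was the exception in size, at 11.06, 10.86 and 10.78 in swi3, against 12.48, 12.18 and 12.20 in the wild type (-1.39 ± 0.12, adjusted p = 0.000566).

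Some iron uptake genes were lower in swi3, with 1 array of each strain apart from the rest. Yeast takes up iron through cell surface reductases, the Fet3-Ftr1 permease and siderophore transporters, under the activators Aft1 and Aft2. Of 29 measured genes 8 were lower and 0 higher by limma, beside 13.3% and 14.1% of all features, with a median of -0.85. At an unadjusted p under 0.05 the counts were 13 and 0. The mean level of the 29 genes was 9.3, 9.23 and 10.53 in swi3, against 10.48, 10.40 and 11.27 in the wild type. The number 3 array was the highest of both strains. With the replicate number as a block 17 were lower and 1 higher, and without both number 3 arrays 18 were lower and 0 higher. Without single arrays the lower calls were between 3 (without swi3 number 2) and 15 (without swi3 number 3), with 4 without each wild-type array.

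ENB1, a siderophore transporter gene, had 8.90, 8.47 and 9.04 in swi3, against 11.45, 11.44 and 12.27 in the wild type (-2.92 ± 0.27, adjusted p = 0.000745). ARN2 stood at 8.58, 8.51 and 9.23 in swi3, against 11.57, 11.30 and 13.07 in the wild type (-3.21 ± 0.48, adjusted p = 0.00519). Within each number, both siderophore transporter genes were lower in swi3. TIS11, which encodes a protein that destabilises messages of iron-using enzymes, had 6.84, 6.37 and 9.84 in swi3, against 10.75, 10.49 and 11.59 in the wild type (-3.26 ± 0.92, adjusted p = 0.0435). Its call was lost without swi3 number 1 or 2 or any wild-type array. SIT1 was at 8.35, 8.35 and 12.01 in swi3, against 12.25, 12.19 and 12.84 in the wild type (-2.86 ± 1.00), which was not called (adjusted p = 0.0819) but was called lower with the block and without swi3 number 3. FIT2, a wall mannoprotein gene that holds siderophores, differed by -2.33 ± 1.2 with high number 3 arrays in both strains, and its calls went the same way as those of SIT1 in these settings. FRE1, a surface reductase gene, differed by -1.83 ± 0.40 and AFT1 by -0.64 ± 0.18, and both calls were lost without swi3 number 2 or any wild-type array, that of AFT1 also without swi3 number 1. FET3 (-0.55 ± 0.37) and FTR1 (0.52 ± 0.29) were not called, and FTR1 was called higher with the block.

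Among mating genes, BAR1, MFA1 and STE6 were lower, and all of these had their lowest level on the number 3 array in both strains. BY4741 cells of mating type a make a-factor, a receptor for alpha-factor and the protease that destroys it. Of 7 genes specific to a cells 3 were lower and 0 higher by limma (median -0.90, 4 and 0 at an unadjusted p under 0.05), and 5 were lower with the block. Over all features 13.3% were lower and 14.1% higher, and with the block 19.1% and 17.3%. BAR1, the protease gene, was at 9.56, 9.16 and 8.38 in swi3, against 11.78, 11.85 and 11.23 in the wild type (-2.58 ± 0.32, adjusted p = 0.00264). MFA1, 1 of the genes for a-factor, was at 11.36, 11.22 and 10.09 in swi3, against 13.07, 13.37 and 12.30 in the wild type (-2.02 ± 0.42, adjusted p = 0.0158), a call that was lost without wild-type number 1 or 2. STE6, the a-factor exporter, was lower by less (-0.90 ± 0.13). The receptor gene STE2 (-0.48 ± 0.21), the agglutinin gene AGA2 (-1.32 ± 0.50) and the second a-factor gene MFA2 (-0.19 ± 0.19) were not called, and STE2 and AGA2 were called lower with the block.

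Of 27 pheromone response genes 7 were lower and 4 higher (median -0.42), against 13.3% and 14.1% of all features. The share of higher calls was thus near that of all features. With the block 14 of these genes were lower and 4 higher, against 19.1% and 17.3% of all features. Without single arrays, between 2 (without wild-type number 2) and 10 (without wild-type number 3) were lower and between 0 (without swi3 number 2) and 3 higher. The lower calls were 3 without swi3 number 2 or wild-type number 1 and 4 without swi3 number 3. PRM4 stood at 6.63, 7.13 and 7.55 in swi3, against 9.57, 9.25 and 9.35 in the wild type (-2.28 ± 0.23, adjusted p = 0.00115). SST2, which turns the pheromone signal off, differed by -1.77 ± 0.27 (adjusted p = 0.00579). FIG1, a fusion gene, was at 5.21, 5.56 and 4.81 in swi3, against 8.61, 8.46 and 5.36 in the wild type. Its wild-type arrays thus spread widely, and it was not called (-2.28 ± 0.87, adjusted p = 0.104). It was called lower with the block, after median-centring and without wild-type number 3. KAR4, which encodes a factor for nuclear fusion genes, was higher (0.61 ± 0.15), a call that was lost without swi3 number 2 or 3, any wild-type array or both number 3 arrays. The alpha-factor genes MF(ALPHA)1 and MF(ALPHA)2 had mean levels under 7 in both groups. Of 4 alpha-specific genes 2 were lower, SAG1 (-0.67 ± 0.13) and STE3 (-0.49 ± 0.10). The SAG1 call was lost without wild-type number 1 or 2. That of STE3 was lost without swi3 number 2 or wild-type number 2 and in the fit on 18 arrays. Of 24 sporulation genes 2 were higher and 3 lower, neither above the share of all features, against 0 and 9 after median-centring. Without single arrays 0 to 3 were higher and 1 to 4 lower, with 0 and 1 without wild-type number 1 or 2. STE2 stood at 12.12 or more on each of the 6 arrays, so a defining marker of a cells was present in both groups.

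**Figure D4:**
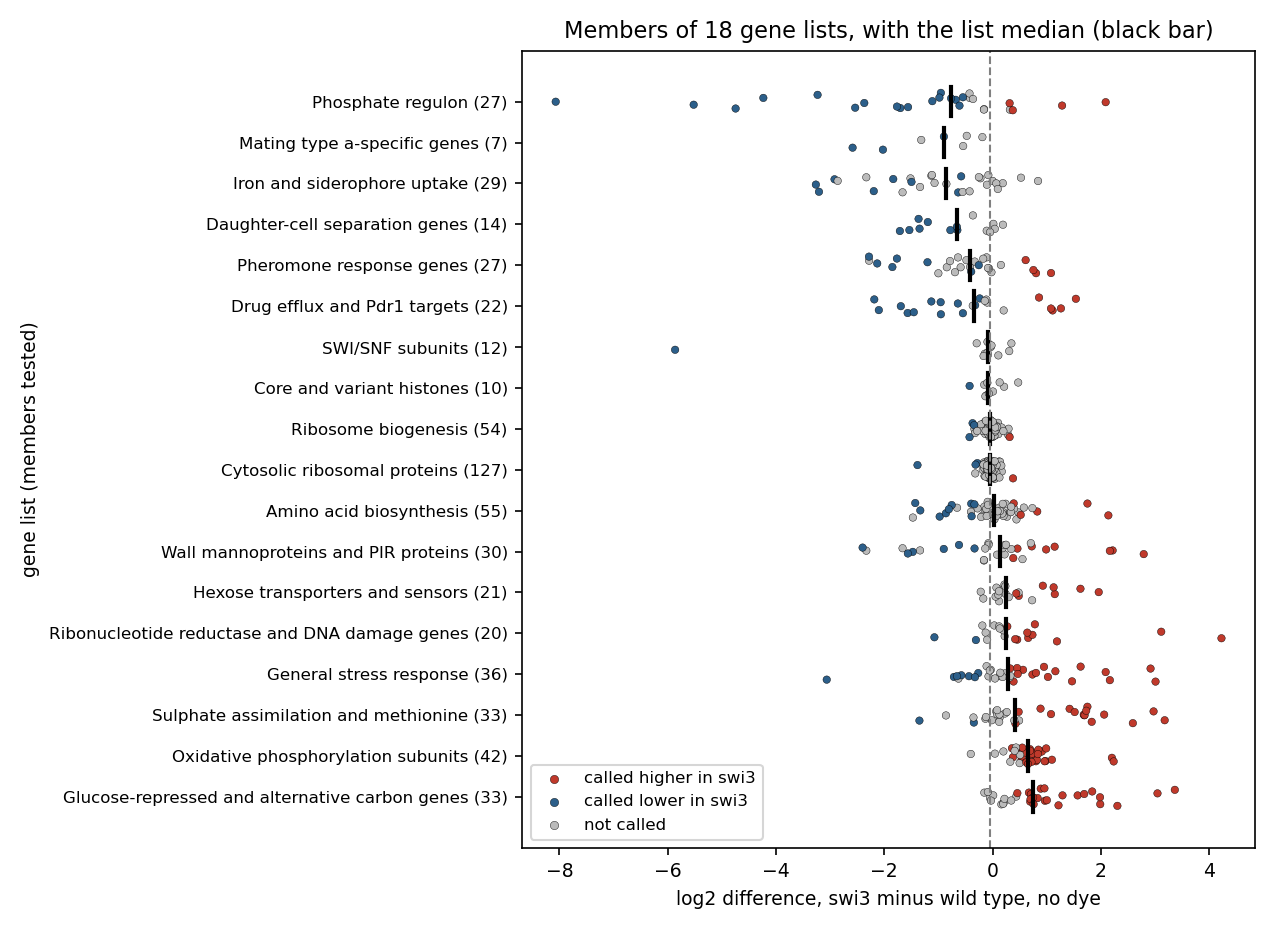
Differences of swi3 minus wild type without dye (log2, x axis) for the tested members of 18 gene lists, 1 point per gene, with the number of members after each name. Black bars are list medians and the dashed line is the median of all features (-0.05). Members of the phosphate list reach -8.07, those of oxidative phosphorylation lie mostly between 0 and 1, and ribosomal proteins gather at 0.

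Amino acid transport and breakdown genes moved in both directions. Of 27 permease genes 4 were higher and 7 lower, against 14.1% and 13.3% of all features. The share of higher calls was thus near that of all features. After median-centring 8 were higher and 8 lower. PUT4, the proline permease, stood at 10.58, 10.61 and 10.35 in swi3, against 6.33, 6.23 and 5.94 in the wild type (4.34 ± 0.13, adjusted p = 2.32e-05). GAP1, the general permease of poor nitrogen sources, was higher by 2.02 ± 0.25. DIP5, the permease of acidic amino acids, was at 8.05, 7.37 and 6.57 in swi3, against 11.29, 11.36 and 11.30 in the wild type (-3.99 ± 0.35, adjusted p = 0.000654). TAT1 (-2.26 ± 0.15) and TAT2 (-1.29 ± 0.07), permeases of aromatic amino acids, were lower.

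Genes that break aromatic amino acids down to alcohols had calls in both directions. ARO10, the phenylpyruvate decarboxylase gene, had 4.69, 5.19 and 4.74 in swi3, against 8.46, 8.8 and 8.54 in the wild type (-3.73 ± 0.16, adjusted p = 6.95e-05). ARO9, the aromatic aminotransferase gene, was at 6.87, 7.68 and 6.92 in swi3, against 10.32, 10.45 and 10.05 in the wild type (-3.12 ± 0.24, adjusted p = 0.000394). Of the 13 genes of this list 5 were lower and 3 higher, beside 13.3% and 14.1% of all features. Of 55 amino acid biosynthesis genes 5 were higher and 9 lower, with the block 17 and 14, and after median-centring 16 and 6. The balance of directions thus depended on the model and on the scaling. Without wild-type number 2 it was 3 higher and 5 lower, and without swi3 number 2 it was 3 and 6. LYS9 (-1.43 ± 0.12), LYS20 (-1.33 ± 0.07) and HIS4 (-0.98 ± 0.09) were lower, and ARG3 (1.75 ± 0.17) was higher.

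Drug efflux genes were mostly lower, with 12 of 22 lower and 5 higher (median -0.34). QDR2, a multidrug exporter gene, was at 7.91, 7.75 and 7.79 in swi3, against 9.99, 9.85 and 10.17 in the wild type (-2.18 ± 0.10, adjusted p = 8.06e-05). The ABC transporter genes PDR5 (-1.69 ± 0.11) and PDR15 (-2.10 ± 0.09) and their activator gene PDR3 (-1.57 ± 0.10) were lower, while PDR10 (1.54 ± 0.10) and the polyamine exporter gene TPO2 (1.08 ± 0.09) were higher.

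Of 36 general stress genes 16 were higher and 7 lower (median 0.28), beside 14.1% and 13.3% of all features. Without both number 3 arrays 10 of these genes were higher and 5 lower. The lower calls were 1 without wild-type number 1 or swi3 number 2, 2 without wild-type number 2, and 11 to 16 were higher without single arrays. SOL4 was at 10.49, 10.62 and 10.73 in swi3, against 7.83, 7.4 and 7.58 in the wild type (3.01 ± 0.13, adjusted p = 6.29e-05). HSP12, a small membrane-stabilising stress protein gene, was at 11.87, 12.47 and 12.83 in swi3, against 8.86, 8.97 and 10.59 in the wild type (2.92 ± 0.51, adjusted p = 0.00876). YGP1, a secreted glycoprotein gene, went the other way, at 9.59, 9.64 and 9.12 in swi3, against 12.45, 12.40 and 12.68 in the wild type (-3.06 ± 0.16, adjusted p = 0.000115). Chaperone genes of the heat shock list held few calls, with 1 of 25 higher and 4 lower, HSP82 at -0.44 ± 0.06 and SSA1 at -0.42 ± 0.06, the SSA1 call being lost after median-centring. That setting gave 7 higher and 3 lower in the list, so no direction is given for it.

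The cell wall lists held calls in both directions, beside 14.1% higher and 13.3% lower over all features. Of 30 wall mannoprotein genes 8 were higher and 6 lower, of 32 beta-glucan genes 7 and 5 (14 and 3 after median-centring), of 20 chitin genes 5 and 1, and of 30 genes of cell wall integrity signalling 6 and 2. TIR2 was at 11.90, 11.84 and 11.07 in swi3, against 9.08, 8.75 and 8.61 in the wild type (2.79 ± 0.25, adjusted p = 0.000676), whereas its relatives TIR3 (-2.40 ± 0.32) and TIR1 (-1.56 ± 0.17) were lower. CWP1 (1.15 ± 0.06) and SPI1 (2.17 ± 0.08) were higher and PST1 (-1.47 ± 0.11) was lower. RLM1, the transcription factor gene at the end of the integrity pathway, was at 10.14, 10.10 and 10.05 in swi3, against 8.97, 9.14 and 8.91 in the wild type (1.09 ± 0.08, adjusted p = 0.000363). The MAP kinase gene SLT2 above it was not called (0.05 ± 0.10).

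Among the largest increases, several genes belonged to none of these groups. PRR2, a protein kinase gene, was at 10.04, 10.08 and 10.15 in swi3, against 5.71, 5.68 and 5.73 in the wild type, a difference of 4.38 ± 0.06 (adjusted p = 1.79e-06). It had the largest increase after quantile normalization, but after median-centring HUG1 (4.16) and HBN1 (4.13) lay above PRR2 (4.07), whose wild-type levels were under 7. HBN1 differed by 4.05 ± 0.09, the kinase gene RCK1 by 3.68 ± 0.25, YMR206W by 3.35 ± 0.22, SET4 by 3.13 ± 0.22 and ECM13 by 2.94 ± 0.17. NRG1, the repressor gene of glucose-repressed promoters, stood at 10.54, 10.29 and 10.40 in swi3, against 7.75, 7.28 and 7.04 in the wild type (3.05 ± 0.19, adjusted p = 0.0002). Among the largest decreases, the glutathione peroxidase gene GPX2 was at 7.60, 7.62 and 8.0 in swi3, against 11.32, 11.19 and 11.84 in the wild type (-3.71 ± 0.20, adjusted p = 0.00013). YRO2 differed by -3.24 ± 0.19. YBL005W-A (-3.70 ± 0.40) and YBL100W-A (-3.17 ± 0.65) were also among them, and the YBL100W-A call was lost without wild-type number 2.

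The same strains with Congo Red gave a second set of 6 arrays. There 814 features were higher in swi3 (14.4%) and 723 lower (12.8%), 27.2% in all. Of the features called without the dye, 582 were also called higher with it (72.9% of the higher calls) and 428 lower (56.9% of the lower calls), and 14 had the opposite call. PHO84 differed by -7.55 with Congo Red and -8.07 without, SPL2 by -5.45 and -5.52, PHO5 by -4.12 and -4.23, and HO by -3.84 and -3.98. HUG1 differed by 3.92 with Congo Red and 4.23 without, and PUT4 by 3.79 and 4.34. The direct test of the difference called 106 features (1.88%), 11 of them with a higher (0.195%) and 95 with a lower swi3 effect (1.68%) under the dye. BAG7 was higher in swi3 without the dye (0.98 ± 0.10) and lower with it (-1.19), and the joint fit of 12 arrays put the difference between the effects at -2.24 ± 0.17. KDX1 differed by 0.57 ± 0.13 without the dye and -1.89 with it, and PRM10 by 0.75 ± 0.20 and -1.02. The KDX1 call without the dye was lost after median-centring, without swi3 number 2 or 3, wild-type number 1 or 3 and both number 3 arrays, and its sign turned without further normalization. That of PRM10 was lost without any swi3 array or wild-type number 2. All BAG7 levels without the dye were under 7, and the BAG7 call without the dye was lost after median-centring and turned in sign without further normalization. The phosphate, HO and damage genes named here had no called difference between the effects.

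**Figure D5:**
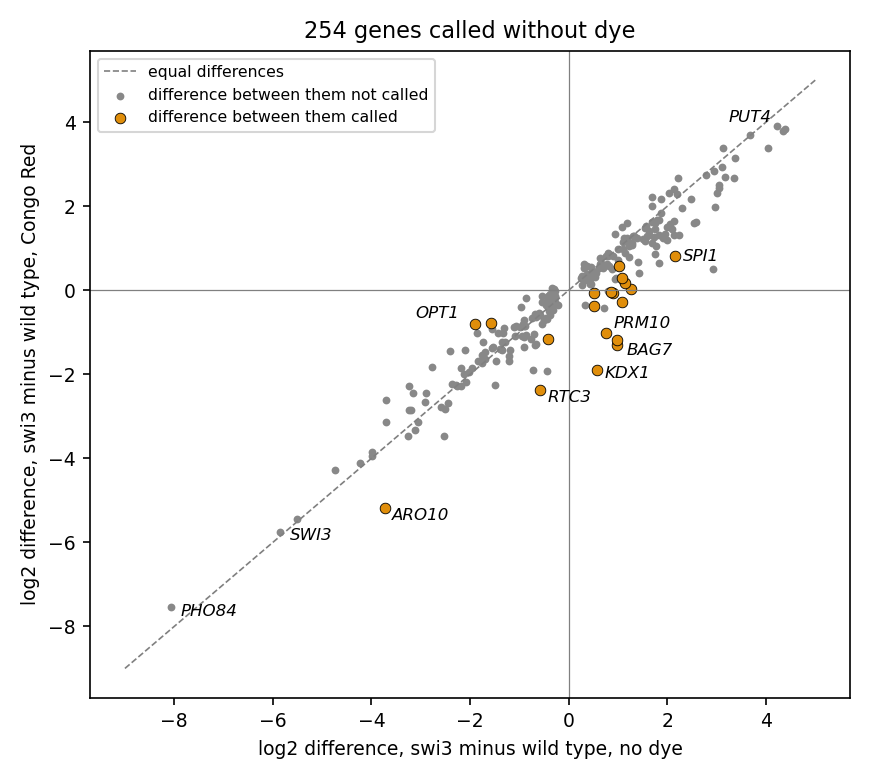
Differences of swi3 minus wild type with Congo Red (log2, y axis) against those without the dye (log2, x axis) for 254 named genes called without it. They were picked by the naming rule or after their values were seen, and do not stand for all 1550 features called. Orange points are the 19 whose effects differed between the conditions by a direct test, and the dashed line marks equal differences. PHO84 and PUT4 lie near the line, and BAG7, KDX1 and PRM10 lie well under it, higher in swi3 without the dye and lower with it. The calls of all 3 without the dye were lost in other settings.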

How the data were processed

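RNA of 6 cultures was measured on Affymetrix arrays with 5814 probe sets. The authors summarised each probe set as a log2 value with GCRMA, per the submitters' processing notes. Neither its version nor the set of arrays entered in it is given in the sources used here. That the deposited scale is log2 follows from its range. From these, 51 Affymetrix controls and 47 reporters were left out, the 6 arrays were quantile normalized, and features below a deposited level of 4 on more than 3 arrays were dropped. Where probe sets shared a gene the brightest was kept, which left 5645 features, 5429 of them with a symbol. Gene symbols follow NCBI's assembly R64 (12 updated), and no coordinates are given because no build is named.

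Group means were fitted by lmFit and eBayes of limma 3.58.1 (R 4.3.3), and p-values were adjusted by Benjamini-Hochberg over all 5645 features. The Congo Red arrays were fitted in the same way, and the difference between the conditions on 12 arrays together. On simulated data for 5645 genes the comparison without dye recovered 34.3% of changes of 0.5, 80.6% of changes of 1 and 97% of changes of 2 on the log2 scale, with 6 false calls. The simulation changed 67, 67 and 66 genes of these sizes, about evenly up and down, with independent noise. In the real arrays 27.5% of features were called and array deviations correlated, so these rates may not carry over. Figures were drawn with matplotlib 3.10.9 in Python 3.11.15. Nothing says that the swi3 and wild-type samples of 1 number were handled together, but their deviations correlated (r = 0.55, 0.12 and 0.60 for numbers 1, 2 and 3). Unmatched numbers gave r from -0.60 to 0.36, the highest for swi3 number 1 with wild-type number 2, above the matched number 2, so the pairing is uncertain. As every matched r was over 0.1, the number was also fitted as a replicate block. With 3 arrays per group, precision is limited by their number. At least 95.3% of probe sets differed between any 2 arrays.

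The comparison and the 41 gene lists were chosen with earlier results of these data known. Of the 1098 list entries, 1055 were tested. Genes were named by rule: the 15 largest increases and the 15 largest decreases among genes with a symbol called before and after median-centring and without overlap, all SWI/SNF subunits and genes classically tied to the complex, up to 4 called members per list and direction, and the neighbours of SWI3. That gave 224 genes, and 85 more were chosen after their values were seen. These include nearly all genes printed as not called outside the SWI/SNF lists. The called ones printed are PHO2, PHO81, PHO86, PHO89, VTC1, VTC2, VTC3, VTC4, MET5, MET6, MET10, MET13, MET14, MET16, SUL2, CYB2, PCK1, COX4, ATP1, RFX1, RNR4, AFT1, FRE1, DSE4 and KDX1, and the regulators and enzymes that open the other observations. The alternatives were no further normalization, median-centring, quantile normalization of 18 arrays, fits on 12 or 18 arrays, other filters and probe set rules, a trended and robust prior, ordinary least squares, the replicate block and each array left out. Leaving out both number 3 arrays, and the alternatives for the Congo Red comparison and for the difference, were chosen after seeing the data.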

Additional observations from a re-analysis of the deposited data

Results flagged for a closer look

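The effect of swi3 differed between cultures with and without Congo Red for 20 named genes by the direct limma test of that difference. Each value here is the log2 difference of swi3 minus wild type with the dye, minus the same without it. The largest were KDX1 (-2.46), PIR3 (-2.25), BAG7 (-2.24), RTC3 (-1.81), PRM10 (-1.76), ARO10 (-1.50), PRM5 (-1.35), SPI1 (-1.30) and RTA1 (-1.18). Genes of wall synthesis and its signalling followed, with CWP1 (-0.96), CRH1 (-0.95), SLT2 (-0.90), GFA1 (-0.87), RLM1 (-0.78) and PCM1 (-0.58). The remaining ones were GLC3 (-0.90), OPI3 (-0.75), GLK1 (-0.41), PDR3 (0.72) and OPT1 (1.06). Of the 20 differences, 12 were called in all 15 alternatives, and RTA1, PRM5, GLK1, PCM1, OPI3, PDR3, OPT1 and ARO10 lost the call in at least 1 of them.

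One reporter probe set outside the tests stood at 13.68, 13.70 and 13.64 in swi3, against 4.9, 5.13 and 5.14 in the wild type without dye, on the deposited log2 scale. The difference was 8.62, and the same probe set averaged 13.68 in rlm1 without the dye and 13.55 in rlm1 with it, so it was high in both mutants. No gene is named for this probe set in the tables used here. A second reporter probe set, named after the same source sequence, stayed at 5.69 or less on all 18 arrays. Its difference without the dye was -1.31.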

How the results depend on the processing

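Of 254 named genes called, 163 were called in the same direction in all alternatives and 179 without each array in turn and without both number 3 arrays. Without further normalization 409 features were higher and 3254 lower (117 and 564 by at least 2-fold), and after median-centring 235 were lower by at least 2-fold. With the replicate block 975 were higher and 1077 lower, of which 1525 were called in the same direction without it. Leaving out single arrays gave 525 to 816 higher and 319 to 839 lower calls, the lowest of both without wild-type number 2, and 389 lower without wild-type number 1 and 408 without swi3 number 2. Without both number 3 arrays, 28 oxidative phosphorylation genes and 2 seripauperins were higher, and 9 drug efflux genes and 1 secretory gene were lower. There were 5 lower a-specific and 10 lower pheromone response genes in that setting. Over all features it gave 603 higher and 460 lower. With Congo Red the counts were 368 and 3021 without further normalization, 1165 lower after median-centring, 1227 and 1266 with the replicate block, and 533 to 755 higher and 421 to 640 lower without single arrays. For the difference between the conditions they were 6 and 53, 6 and 63 after median-centring, 73 and 176 with the replicate block, and 4 to 40 higher and 50 to 109 lower without single arrays. Sign changes are listed only for named genes called in the main fit or in the changed setting. Without further normalization the sign turned for BAG7 (-0.037), SPS100 (-0.36), KDX1 (-0.24), PAU2 (-0.19), SUL1 (-0.63), ITC1 (-0.037), HSP26 (-0.12), OPI1 (-0.033), SPO13 (-0.79), GAL10 (-0.92), SNF5 (-0.31), MET17 (-0.85), LEU2 (-0.96), SWI4 (-0.68) and KRE9 (-0.20). After median-centring it turned for SPO13 (-0.42), GAL10 (-0.55), MET17 (-0.48), RPL17B (0.24), ERG20 (0.037) and ENO2 (0.03). The causes were not tested.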

Other observations

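Several regulators of carbon use and stress, chosen after their values were seen, were higher in swi3. CAT8, an activator of gluconeogenic genes, stood at 8.53, 8.19 and 8.27 in swi3, against 6.08, 6.28 and 6.18 in the wild type (2.15 ± 0.11, SE, n = 3, limma adjusted p = 0.000107). HAP4, the regulatory subunit gene of the activator of respiration genes, differed by 1.63 ± 0.14, and ADR1, an activator of ADH2 and of fatty acid use, by 1.84 ± 0.17. NRG2, a relative of NRG1, differed by 1.92 ± 0.15, the stress activator gene MSN4 by 1.77 ± 0.18, and the bZIP factor genes YAP6 and CIN5 by 2.49 ± 0.12 and 1.88 ± 0.10. Single genes of mitochondrial transport, picked in the same way, were MPC3 at 2.55 ± 0.20, ODC1 at 2.14 ± 0.17 and AAC1 at 1.80 ± 0.12. YHB1, the flavohaemoglobin that destroys nitric oxide, was lower, at 10.42, 10.30 and 10.34 in swi3, against 13.29, 13.22 and 13.22 in the wild type (-2.89 ± 0.06, adjusted p = 7.7e-06). The zinc transporter gene ZRT1 (-1.74 ± 0.18) and the arginine breakdown gene CAR2 (-2.45 ± 0.21) were also lower.

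Other lists held calls too. Over all features 14.1% were higher and 13.3% lower. Of 17 vitamin B1 and B6 genes 3 were higher, including the thiamine synthesis gene THI4 (1.87 ± 0.07) and its activator gene THI2 (1.55 ± 0.14), and 6 were lower. Of 23 inositol and phospholipid genes 2 were higher and 4 lower, with the phosphatidylethanolamine methyltransferase gene CHO2 at 11.02, 10.80 and 10.81 in swi3, against 12.56, 12.63 and 12.70 in the wild type (-1.76 ± 0.09, adjusted p = 9.61e-05). Of 26 ergosterol genes 6 were higher and 1 lower, with the activator genes ECM22 (0.94 ± 0.13) and UPC2 (0.69 ± 0.10) among the higher ones, the UPC2 call being lost after median-centring and without further normalization. Median-centring gave 11 higher and 0 lower in this list. Of 30 genes of G1 and S phase 1 was higher and 4 lower, among them the cyclin genes CLN2 (-0.69 ± 0.14) and CLB6 (-0.93 ± 0.20). Both calls were lost without swi3 number 2 and without wild-type number 1 or 2, each of which left 0 lower in the list. Of 35 secretory genes 1 was higher and 6 lower, after median-centring 4 and 1, and between 0 and 7 lower without single arrays. Of 13 seripauperin genes, a family of near-identical copies that probe sets may not tell apart, 5 were higher and 0 lower by limma (7 and 0 at an unadjusted p under 0.05), with 1 higher after median-centring and 2 to 5 without single arrays. Of 12 genes of flocculation and invasive growth 0 were higher and 3 lower by limma (1 and 3 at an unadjusted p under 0.05), including HMS2 (-2.77 ± 0.13) and the endopolygalacturonase gene PGU1 (-2.50 ± 0.27). Of 34 other chromatin regulators 3 were higher and 3 lower.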
